A study of Mus musculus with 17 samples.

Results

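The ETS genes encode transcription factors that share a winged helix DNA-binding domain, and 10 of them were followed here across mouse spleen B cells: Ets1, Ets2, Fli1, Elf1, Elf2, Elf4, Spi1, Spib, Etv6 and Gabpa. They were chosen by gene symbol, as rows of the deposited count table, and make up 10 of its 55536 genes. B cells were sorted from p52 knock-in (p52ki) mice and from wild-type (WT) mice, and by its title the series deals with a p52 and ETS1 complex in germinal centres. The p52 protein is a subunit of NF-kB that is cut from the product of Nfkb2. There were 17 RNA-seq libraries in 6 groups: p52ki and WT naive cells, p52ki and WT activated cells, and p52ki and WT germinal centre (GC) cells, with 3 libraries in each group except for 2 of p52ki GC cells. Naive B cells have not met antigen, activated ones have, and GC cells divide and mutate their antibody genes in follicles of the spleen. The sources used here do not give the nature of the p52 knock-in allele, the strain, the age of the mice, any immunization or the sorting gates.

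ETS factors bind a short core, GGAA, and their subfamilies differ in the bases around it and in the partner proteins they bind next to. In B cells PU.1 (from Spi1) and its relative Spi-B (from Spib) act beside interferon regulatory factors on genes of the B cell receptor pathway, ETS1 restrains plasma cell formation in mice, and ELF1 binds a heavy chain enhancer. ETV6 is a repressor, and GABPA is the DNA-binding subunit of a complex that acts on many housekeeping and mitochondrial genes.

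Elf1 was the member called between genotypes, in GC cells, and Spib had the highest level per kb, so their promoters are shown as the sequence context of these 2 genes. They are RefSeq promoter entries on GRCm38.p6, each of 300 bases around an annotated start, written 5′ to 3′ on the strand of the gene, with the ETS core GGAA or its complement TTCC in capitals. Elf1 has 2 entries on the plus strand, at chr14:79480944-79481243 and chr14:79515424-79515723. The Spib entry is at chr7:44532022-44532321 on the minus strand.
Elf1, upstream start: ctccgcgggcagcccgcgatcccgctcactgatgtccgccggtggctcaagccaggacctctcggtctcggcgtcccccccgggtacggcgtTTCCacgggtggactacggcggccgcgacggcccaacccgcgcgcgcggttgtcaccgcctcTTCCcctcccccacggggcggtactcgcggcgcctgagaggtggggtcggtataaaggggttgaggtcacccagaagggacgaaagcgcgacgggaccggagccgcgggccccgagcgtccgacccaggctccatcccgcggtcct
Elf1, downstream start: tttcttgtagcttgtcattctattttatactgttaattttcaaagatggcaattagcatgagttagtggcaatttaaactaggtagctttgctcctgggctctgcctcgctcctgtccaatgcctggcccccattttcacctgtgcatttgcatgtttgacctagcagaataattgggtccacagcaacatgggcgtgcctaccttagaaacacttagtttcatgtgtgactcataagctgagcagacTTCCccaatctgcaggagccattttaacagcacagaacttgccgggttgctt
Spib: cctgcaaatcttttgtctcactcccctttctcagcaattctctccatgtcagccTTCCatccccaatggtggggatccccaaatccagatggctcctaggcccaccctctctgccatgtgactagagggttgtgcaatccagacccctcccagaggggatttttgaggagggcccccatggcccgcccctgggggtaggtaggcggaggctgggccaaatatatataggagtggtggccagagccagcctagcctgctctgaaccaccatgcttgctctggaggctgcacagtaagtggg
The core occurs at 2 places in the upstream Elf1 window, 1 in the downstream Elf1 window and 1 in the Spib window. Motifs were searched on both strands. Of 7 members with an entry, all 10 promoters hold GGAA, as do 96% of 32851 mouse promoters of this length. The pattern GGGNNNNCC, which can overlap the core, is in 9 of the 10, against 43.8% of all promoters. It allows a single spacing between GGG and CC and is not a full NF-kB site. Longer NF-kB sites were not searched for. These 10 windows come from 7 genes and have a median GC content of 63.5%, against 52.7% over all promoters. The pattern is itself rich in G and C, and the part of GC content in its share was not tested. It has 2 and 1 matches in the Elf1 windows and 5 in the Spib window. The longer ETS site CCGGAAGT (3.89% of all promoters) is in 0 of the 10, and the composite ETS and interferon regulatory factor pattern GGAANNGAA (8.24%) is in 1, an Elf2 promoter. Both of these contain the core. Ets1, Fli1 and Spi1 have no sequence shown.

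Counts per library ran from 4067281 to 10036347. Both p52ki GC libraries and WT GC replicate 3 had few detected genes, 11390 and 13044 in p52ki GC replicates 2 and 5, against 11232 in WT GC replicate 3 and 18449 and 19135 in WT GC replicates 1 and 4. The other 12 libraries had 16745 to 19672. B cell markers such as Cd79a, Cd79b and Ms4a1 had counts in every library, and a list of 8 GC markers summed to 1036 to 1936 CPM in p52ki GC cells, 2055 to 2850 in WT GC cells and 63.2 to 75.4 in naive cells of both genotypes. The 6 naive follicular markers summed to 1362 to 1523 CPM in p52ki GC cells and to 481 to 683 in WT GC cells. The genotype comparison in GC cells thus runs beside differences in marker levels and in detected genes, and their part in it was not tested except where stated. Library numbers in the sample titles are 19 to 30 in p52ki and 1 to 12 in WT, so that a batch following them cannot be told apart from genotype. No label says whether a replicate is an animal of its own, and p-values cover the spread among these libraries, which may be technical. In sorted bulk cells, fewer cells of a type and less RNA per cell cannot be told apart.

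All 10 ETS genes were read in naive, activated and GC cells and passed the filter on low counts, 10 of the 15352 genes tested. Per kilobase of exon, Spib ranked first in all 6 groups. Its level was 123 CPM per kb in p52ki naive cells and 109 in WT naive cells, 177 in p52ki activated and 148 in WT activated cells, and 103 in p52ki GC and 125 in WT GC cells. In each group its libraries lay above those of the gene ranked next. Ets1, Fli1, Elf1 and Spi1 came after it, between 19.9 and 68.3 CPM per kb over the 6 groups, and the other 5 genes were at 13.4 or less. Etv6 ranked last in each group, at 1.6 to 3.02 CPM per kb, although its libraries overlapped with those of Ets2 except in WT naive and p52ki activated cells. The order among the middle genes depended on the stage. In naive cells of both genotypes Ets1 was followed by Fli1, with overlapping libraries, whereas in GC cells of both genotypes Spi1 came directly after Spib, at 48.8 CPM per kb in p52ki and 60.2 in WT. With the longest transcript in place of all exons, Ets1 came ahead of Spib in WT naive cells.

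**Figure D1:**
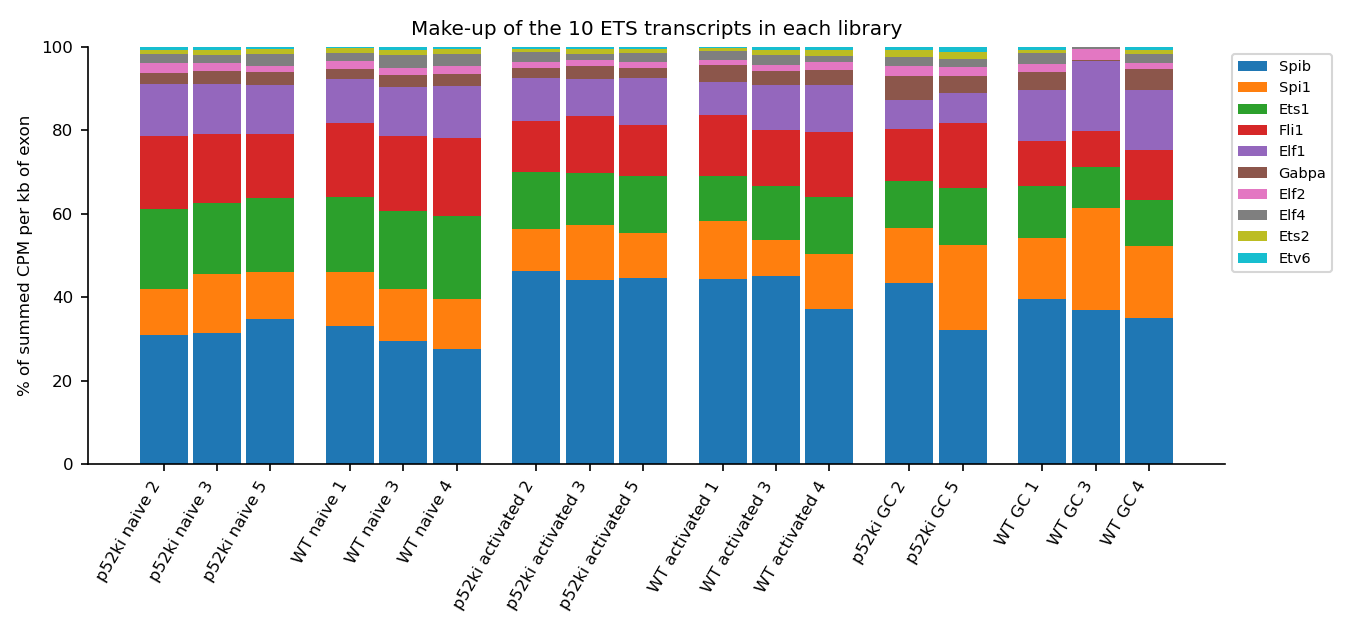
Share of each of the 10 ETS genes in their summed CPM per kb of exon (y axis, %) in the 17 libraries (x axis). Spib takes the largest share in each library, and Elf1 (purple) takes 6.91% and 7.2% in the p52ki GC libraries against 12.3% to 16.8% in the WT GC libraries.

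The shares of the summed ETS transcript level per kb describe the same stages without reference to other genes. Ets1 took 9.9% to 13.8% in GC libraries and 17.1% to 19.8% in naive libraries of both genotypes, with no overlap. Its share in activated libraries, 10.7% to 13.8%, lay within the GC range. Spib took 37.2% to 46.3% in activated libraries and 27.7% to 34.8% in naive ones. In GC libraries Spib took 32.2% to 43.4%, which overlapped with both. Elf1 took 6.91% and 7.2% in p52ki GC replicates 2 and 5, against 12.3%, 16.8% and 14.4% in WT GC replicates 1, 3 and 4, and 7.94% to 12.5% in the 12 naive and activated libraries. Both p52ki GC libraries were therefore below all other libraries in the share of Elf1. These are descriptions with no test, and a share moves when any other of the 10 genes does.

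**Figure D2:**
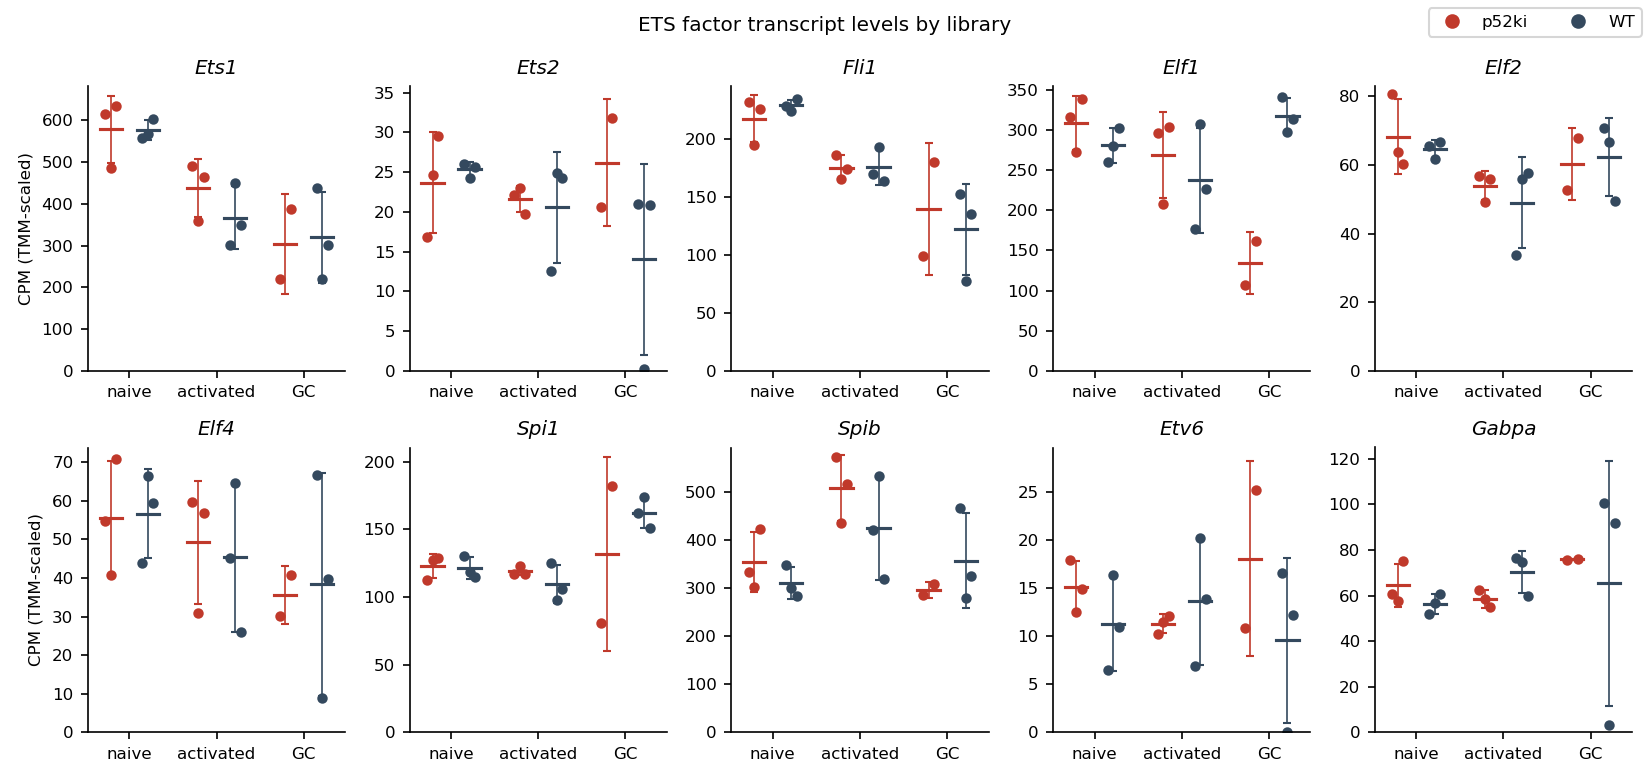
TMM-scaled CPM (y axis, from 0) of each ETS gene in naive, activated and GC cells, with a point per library, a line at the group mean and error bars of 1 SD, p52ki in red and WT in blue. In the Elf1 panel the p52ki GC libraries, at 107 and 162 CPM, lie under all others, and in the Ets2, Etv6 and Gabpa panels 1 WT GC library lies near 0.

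Elf1, an activating ELF factor abundant in lymphocytes, was lower in p52ki GC cells than in WT GC cells. Elf1 (ENSMUSG00000036461, chromosome 14, 79481194 to 79582494, plus strand, GRCm38) was at 107 and 162 CPM in p52ki GC replicates 2 and 5, from 440 and 985 counts. It was at 341, 297 and 314 CPM in WT GC replicates 1, 3 and 4, from 2660, 1461 and 2890 counts. Every p52ki GC library was below every WT GC library. The means were 134 ± 38.9 and 318 ± 22 CPM (SD, n = 2 and 3), a log2 fold change of -1.24 with SE 0.262 (adjusted p = 0.00704, edgeR quasi-likelihood test, Benjamini-Hochberg adjusted over all genes tested). Against WT GC replicate 3 alone the log2 fold change was -1.14. That library was chosen for its few detected genes, so no p is given for it here. A single library cannot tell the part of detected genes in the Elf1 difference. With the count of detected genes as covariate it was -1.06 (adjusted p = 0.0108). Elf1 was not the only member called in that covariate fit, which called 24% of all genes.

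Elf1 was the 1 member called of 10 in this comparison, in which 16% of all genes tested were called, 12.2% lower and 3.75% higher. The direction of the all-gene calls depended on the setting: edgeR called 575 higher and 1875 lower, against 2295 higher and 1384 lower with detected genes as covariate, 2564 higher and 1351 lower against WT GC replicate 3 alone, and 15 higher and 0 lower with limma voom. Elf1 was also the 1 member whose libraries did not overlap, against 15.4% of all genes with p52ki lower and 9.45% with p52ki higher. The median log2 fold change was -0.06 over the 10 members and -0.32 over all genes tested. The Elf1 call did not hold in 3 of 14 alternatives, which include fits with a single library left in a GC group. Without p52ki GC replicate 2 it was -0.98 (adjusted p = 0.0534), fitted on the GC libraries alone it was -1.16 (adjusted p = 0.59), and with limma voom and quality weights it was -1.19 (adjusted p = 0.285). Elf1 shares 327 of its 6737 exon bases with Wbp4 on the other strand, and the sources used here do not say whether strand was used in counting. Wbp4 had a log2 fold change of 0.01 (adjusted p = 0.997).

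**Figure D3:**
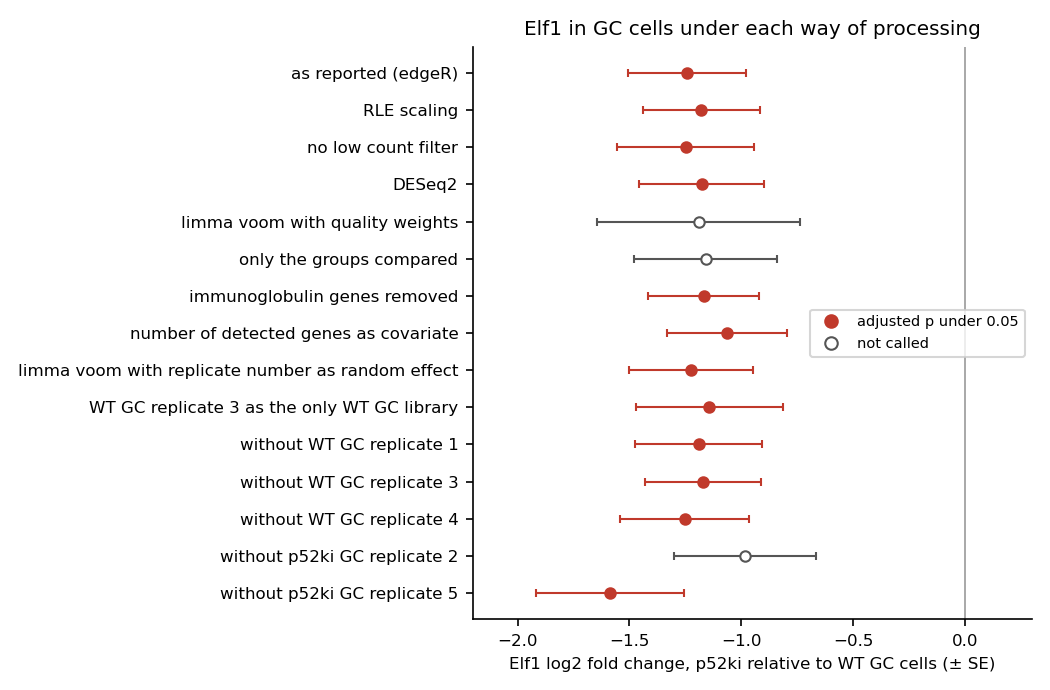
Elf1 log2 fold change, p52ki relative to WT GC cells (x axis, ± SE), as reported and under 14 other ways of processing (y axis). Each value is below 0, and 3 of the 14 have an adjusted p over 0.05, drawn as open points. In the fits with a single library left in a GC group, that library is assumed to vary like the other groups.

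The p52ki GC level of Elf1 was also below the earlier stages of the same genotype. Elf1 was at 316, 272 and 338 CPM in p52ki naive replicates 2, 3 and 5 and at 296, 207 and 303 CPM in p52ki activated ones. In WT it was at 260, 280 and 303 CPM in naive replicates 1, 3 and 4 and at 177, 307 and 227 CPM in activated ones. Activated WT cells had the widest spread, and the WT GC libraries lay in the upper part of the WT range. In p52ki GC cells Elf1 fell by 1.20 on the log2 scale relative to p52ki naive cells (SE 0.262, adjusted p = 0.00437) and by 1.00 relative to p52ki activated cells (SE 0.26, adjusted p = 0.0126), both by edgeR with Benjamini-Hochberg adjustment. The GC against activated change was lower in p52ki than in WT by 1.42 on the log2 scale (a difference of -1.42, SE 0.342, adjusted p = 0.0267), the 1 member called of 10 in that test of the difference, against 5.95% of all genes (4.97% lower). Over all genes edgeR called 150 higher and 763 lower in that test, and 1577 higher and 888 lower with the covariate. This difference lost its call without any 1 of 6 libraries: WT activated replicates 1 and 4, WT GC replicate 1, p52ki activated replicates 2 and 5, and p52ki GC replicate 2 (adjusted p 0.052 to 0.0756). The change from p52ki activated cells lost its call without p52ki activated replicate 2 (adjusted p = 0.0537), without p52ki GC replicate 2 (adjusted p = 0.0946) and with detected genes as a covariate (-0.68, adjusted p = 0.177). The change from p52ki naive cells kept its call without any 1 of its 5 libraries and missed it with the covariate (-0.90, adjusted p = 0.0658).

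The ELF relatives of Elf1 were not called in GC cells. Elf2, whose isoforms can activate or repress, was at 52.8 and 67.7 CPM in p52ki GC cells and at 70.8, 66.8 and 49.3 CPM in WT GC cells (log2 -0.05, SE 0.288, adjusted p = 0.935). Elf4, which restrains T cell proliferation in mice, was at 30.3 and 40.8 CPM in p52ki GC cells and at 66.7, 8.96 and 39.7 CPM in WT GC cells (log2 -0.11, SE 0.598, adjusted p = 0.92). The groups overlapped for both genes, and the WT GC libraries of Elf4 were spread widely. An interval of 2 SE on each side of the Elf2 value ran from -0.62 to 0.53. In naive and activated cells Elf2 averaged 49 to 68.2 CPM and Elf4 45.4 to 56.6 CPM over the 4 groups.

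**Figure D4:**
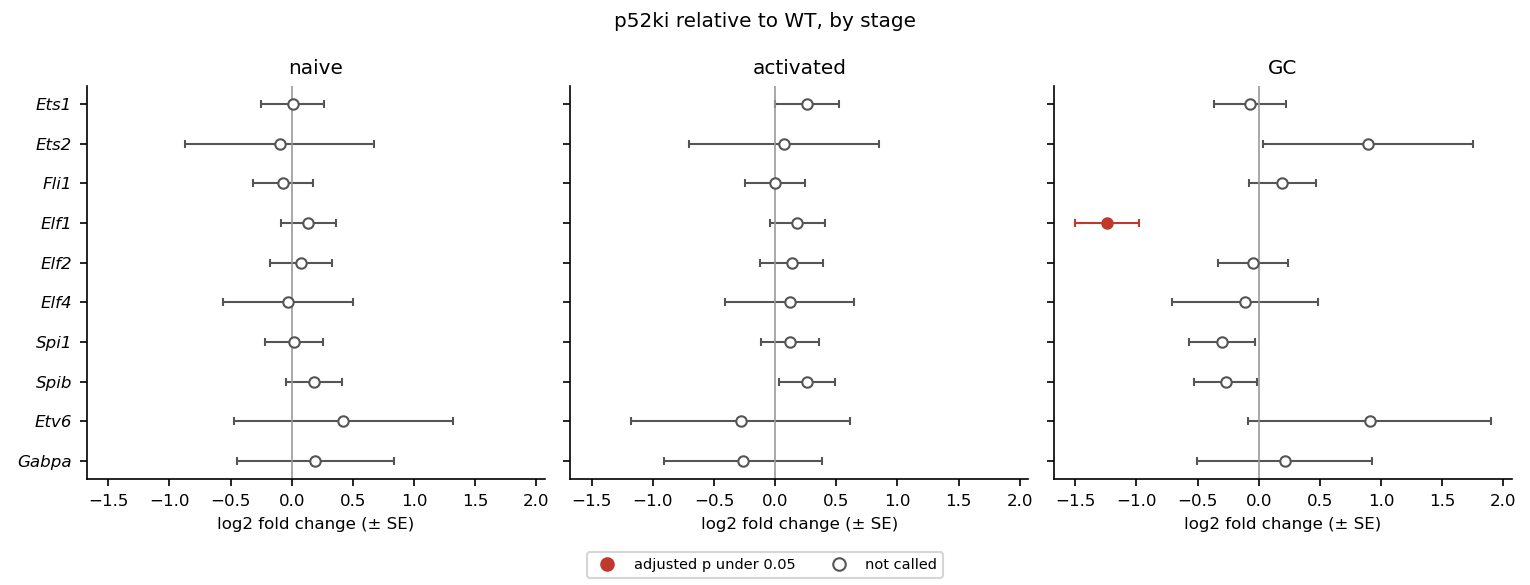
Log2 fold change of p52ki relative to WT (x axis, ± SE, edgeR) for the 10 ETS genes (y axis) in naive, activated and GC cells. Elf1 in GC cells, at -1.24, is the 1 filled point (adjusted p under 0.05).

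Ets1 and Fli1, neighbours on chromosome 9, had lower levels in GC than in naive cells. Ets1 (ENSMUSG00000032035, 32636221 to 32757820, plus strand), the founding member of the family, was at 220 and 389 CPM in p52ki GC replicates 2 and 5, against 616, 487 and 634 CPM in p52ki naive replicates 2, 3 and 5. In WT it was at 437, 221 and 301 CPM in GC replicates 1, 3 and 4, against 557, 568 and 603 CPM in naive cells. The GC and naive libraries did not overlap in either genotype, and the activated means lay between. Activated libraries were at 491, 359 and 465 CPM in p52ki and 301, 449 and 350 CPM in WT, and they overlapped with the GC libraries in both genotypes. Relative to naive cells, Ets1 in GC cells fell by 0.93 on the log2 scale in p52ki (SE 0.3, adjusted p = 0.0316) and by 0.85 in WT (SE 0.262, adjusted p = 0.039), by edgeR with Benjamini-Hochberg adjustment. The p52ki value was -0.22 (adjusted p = 0.668) with detected genes as a covariate and -0.59 (adjusted p = 0.217) without p52ki GC replicate 2, and it also lost its call without p52ki naive replicate 2 or 5 (adjusted p = 0.0769 and 0.0832). The WT value was -0.59 (adjusted p = 0.0954) with the covariate and -0.61 (adjusted p = 0.107) without WT GC replicate 3, and it lost its call without WT naive replicate 1, 3 or 4 or WT GC replicate 4 (adjusted p 0.0858 to 0.109).

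Fli1 (ENSMUSG00000016087, chromosome 9, 32422204 to 32542861, minus strand), an ERG-type factor needed for normal B cell development in mice, lies 93.4 kb from Ets1 with 0 protein-coding genes between. It was at 99.3 and 180 CPM in p52ki GC cells, against 232, 195 and 226 CPM in p52ki naive cells. In WT it was at 153, 78 and 136 CPM in GC cells, against 229, 224 and 234 CPM in naive cells, again with no overlap. In WT GC cells Fli1 fell by 0.91 on the log2 scale relative to naive cells (SE 0.247, adjusted p = 0.0208, edgeR with Benjamini-Hochberg adjustment), a call lost without any 1 of the 3 WT naive libraries (adjusted p 0.0563 to 0.0628). The same comparison in p52ki missed the threshold (adjusted p = 0.0953), and the GC against naive change was not tested for a difference between genotypes.

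Between genotypes neither gene was called in GC cells in the fit as reported. Ets1 averaged 304 ± 119 CPM in p52ki GC cells and 320 ± 109 CPM in WT GC cells (log2 -0.07, SE 0.292, adjusted p = 0.897), and a 2 SE interval ran from -0.65 to 0.51. The sign of this small Ets1 value turned under 6 other settings of processing and when either of 2 single libraries was left out. Fli1 averaged 140 ± 57 and 122 ± 39.2 CPM in the same order (log2 0.19, SE 0.273, adjusted p = 0.66). Over 14 alternatives the Fli1 value ran from -0.31 to 0.85. Ets2, a close relative of Ets1, was at 20.6 and 31.8 CPM in p52ki GC cells and at 21, 0.204 and 20.9 CPM in WT GC cells, where replicate 3 had 1 count (log2 0.89, SE 0.86, adjusted p = 0.501).

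**Figure D5:**
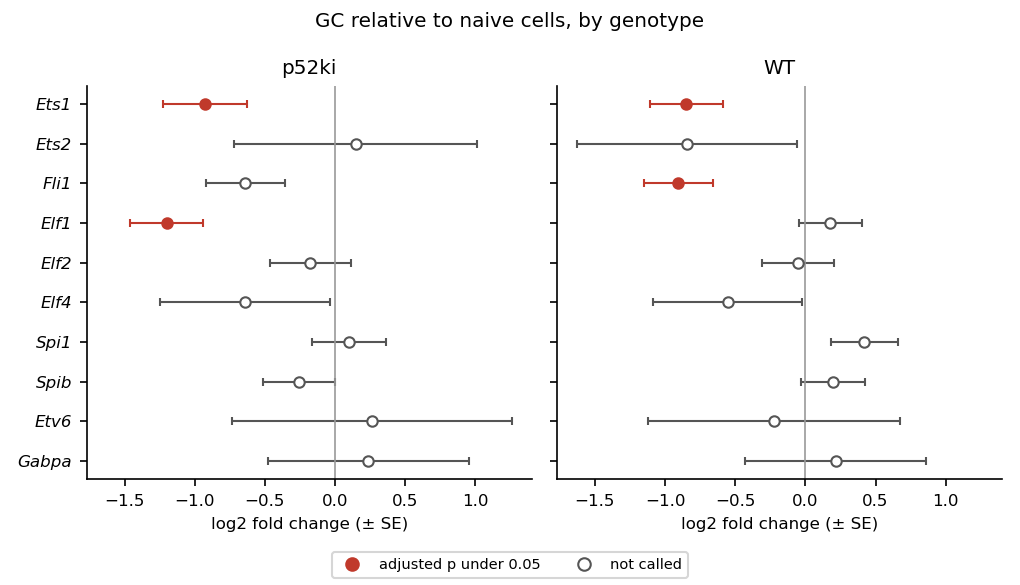
Log2 fold change of GC relative to naive cells (x axis, ± SE, edgeR) for the 10 ETS genes (y axis) in p52ki and WT. Filled points passed an adjusted p of 0.05: Ets1 and Elf1 in p52ki, at -0.93 and -1.20, and Ets1 and Fli1 in WT, at -0.85 and -0.91.

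Over all 10 genes, 2 were called lower and 0 higher in GC relative to naive cells in each genotype. In p52ki these were Ets1 and Elf1, against 29.1% of all genes called (20.4% lower), and in WT they were Ets1 and Fli1, against 15.9% (7.47% lower). The member medians were -0.22 in p52ki and -0.14 in WT, beside -0.42 and -0.16 over all genes. With detected genes as covariate the all-gene split in p52ki turned to 2015 higher and 1320 lower, against 1333 higher and 3128 lower as reported, and limma voom called 303 higher and 87 lower. In p52ki the GC libraries lay below the naive ones for Ets1, Fli1 and Elf1 (39.9% of all genes) and above them for Gabpa (17.4% of all genes). In WT they lay below for Ets1, Ets2 and Fli1 (25.4% of all genes) and above for Spi1 (16.1% of all genes).

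Spib, whose product Spi-B is the lymphoid relative of PU.1, was lower in GC than in activated cells of p52ki mice. Spib (ENSMUSG00000008193, chromosome 7, 44525993 to 44532071, minus strand) was at 285 and 308 CPM in p52ki GC cells, against 572, 437 and 518 CPM in p52ki activated cells, with no overlap. In WT it was at 468, 280 and 325 CPM in GC cells, against 420, 533 and 320 CPM in activated cells, and the libraries overlapped. In p52ki GC cells Spib fell by 0.78 on the log2 scale relative to activated cells (SE 0.261, adjusted p = 0.04, edgeR with Benjamini-Hochberg adjustment). The call was lost when any 1 of the 5 libraries was left out (adjusted p 0.0591 to 0.154), with immunoglobulin genes removed (adjusted p = 0.0556) and with detected genes as a covariate (-0.40, adjusted p = 0.456). Naive cells had 334, 303 and 423 CPM in p52ki and 349, 301 and 285 CPM in WT.

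Spi1, which encodes PU.1 (ENSMUSG00000002111, chromosome 2, 91082390 to 91115756), was nearly level over naive and activated cells, at 112 to 129 CPM in p52ki and 98 to 131 CPM in WT. In GC cells it was at 80.9 and 182 CPM in p52ki and at 162, 173 and 151 CPM in WT. The 2 p52ki GC libraries lay on either side of the WT ones, so the groups overlapped (log2 -0.30, SE 0.267, adjusted p = 0.462). Without p52ki GC replicate 5 the value was -1.01 (adjusted p = 0.00632), which rests on the lone p52ki GC replicate 2 and stands beside an all-gene median of -0.95 in that fit. Spib averaged 297 ± 16.1 CPM in p52ki GC cells and 357 ± 98.1 CPM in WT GC cells (log2 -0.27, SE 0.257, adjusted p = 0.495).

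Against activated cells, 2 of 10 members were called lower in p52ki GC cells, Elf1 and Spib, beside 25.6% of all genes called (19.3% lower). This split of 974 higher and 2956 lower turned to 1959 higher and 1211 lower with detected genes as covariate and to 153 higher and 33 lower with limma voom. In WT GC cells 0 of 10 were called against activated cells with edgeR, beside 13.6% of all genes, with 2 at an unadjusted p under 0.05, 1 called by DESeq2 and 2 by limma voom, which called 21.7% and 32.7% of all genes. The member medians were -0.09 in p52ki and -0.22 in WT, beside -0.41 and -0.13 over all genes. In p52ki the GC libraries lay below the activated ones for Elf1 and Spib (38.2% of all genes) and above them for Gabpa (15.2%). In WT they lay below for Fli1 (19.5%) and above for Spi1 (11.7%).

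Etv6 and Gabpa stood apart by 1 library. Etv6 was at 10.9 and 25.3 CPM in p52ki GC cells and at 16.5, 0 and 12.2 CPM in WT GC cells, where 3 counts in replicate 3 would have been 0.611 CPM (log2 0.91, SE 0.992, adjusted p = 0.558). Gabpa was at 75.8 and 76.1 CPM in p52ki GC cells and at 101, 3.46 and 91.8 CPM in WT GC cells (log2 0.21, SE 0.717, adjusted p = 0.868). WT GC replicate 3 held 0.972% of the mean of WT GC replicates 1 and 4 for Ets2, 3.59% for Gabpa and 16.8% for Elf4, and 0 counts for Etv6. For Elf1, Spi1 and Elf2 it held 90.8%, 111% and 111% of that mean. Low values of this kind were found across the library. The mean of WT GC replicates 1 and 4 was at least 20 CPM for 6902 genes. Of these, 11.3% were under 10% of that mean in replicate 3. Against WT GC replicate 3 alone, the GC log2 fold changes became 4.46 for Gabpa and 6.91 for Ets2, so the genotype values of Etv6, Gabpa, Ets2 and Elf4 in GC cells depend on this library. Gabpa shares 397 of its 5687 exon bases with Atp5j, which reached 1009 CPM in WT GC replicate 3, where Gabpa had 17 counts. In p52ki GC cells, where the Gabpa libraries lay above the naive and activated ones, Atp5j was higher by 1.69 relative to naive (adjusted p = 0.00432) and by 1.42 relative to activated cells (adjusted p = 0.0126) on the log2 scale. In WT GC cells the Gabpa libraries overlapped with both earlier stages. Atp5j was higher there by 1.64 (adjusted p = 0.00381) and by 1.12 (adjusted p = 0.0374) in the same order, all by edgeR with Benjamini-Hochberg adjustment. The part of the shared bases in the Gabpa counts was not tested.

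In naive and activated cells no ETS gene was called between genotypes. In naive cells 0 of 10 passed with edgeR, DESeq2 and limma voom, 0 were at an unadjusted p under 0.05, and 0% of all genes were called by edgeR. In activated cells the counts were also 0 of 10 with the 3 tools and 0 at an unadjusted p under 0.05, beside 0.013% of all genes called by edgeR. The p52ki and WT libraries overlapped for all 10 genes at both stages, whereas over all genes the naive libraries did not overlap for 5.21% (p52ki higher) and 5.48% (p52ki lower) and the activated ones for 3.15% and 2.95%. The log2 fold changes ran from -0.10 to 0.42 in naive cells and from -0.28 to 0.26 in activated cells, and Etv6, at 0.42 in naive and -0.28 in activated cells, was farthest from 0 at both. Ets1 averaged 579 ± 80 CPM in p52ki naive cells and 576 ± 23.9 CPM in WT naive cells, and 439 ± 69.8 CPM in p52ki activated cells and 367 ± 75.7 CPM in WT activated cells (SD, n = 3 each).

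Few genes were called by edgeR between activated and naive cells, and more by the other tools. Of the 10 members 0 were called in activated relative to naive cells in p52ki, where 0.117% of all genes were called by edgeR, and 1 member was at an unadjusted p under 0.05. DESeq2 called 0 members and 0.977% of all genes there, and limma voom 1 member and 8% of all genes. In WT 0 were called, where 0.319% of all genes were, and 1 was at an unadjusted p under 0.05. DESeq2 called 0 members and 1.97% of all genes there, and limma voom 2 members and 10.5% of all genes. In p52ki the activated libraries lay above the naive ones for Spib (10.8% of all genes) and below for Fli1, Elf2 and Etv6 (8.12%). In WT they lay below for Ets1, Fli1 and Elf2 (9.35%). The difference of this change between genotypes was called for 0 of 10 members with edgeR, DESeq2 and limma voom, with 0 at an unadjusted p under 0.05 and 0% of all genes called by edgeR.

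Genes whose levels followed a member most closely over the 17 libraries were found among 9926 genes by the root mean square difference of centred log2 CPM. For Elf1 they were Atxn2l (0.137), Pde7a (0.14) and Ythdf3 (0.17). Pde7a, a cyclic AMP phosphodiesterase, averaged 60.6 ± 17.2 CPM in p52ki GC cells and 136 ± 18.3 CPM in WT GC cells, and Ythdf3, a reader of methylated RNA, 39.5 ± 19.3 and 104 ± 11.6 CPM. For Ets1 they were Rapgef6 (0.169), Grap (0.177) and Dnajc5 (0.178), and 3 genes outside the members were closer to Ets1 than Fli1 was (0.179). For Fli1 they were Irak1 (0.165), Mia2 (0.176) and Stxbp3 (0.182), and 2 such genes were closer than Ets1. For Spib they were Clic4 (0.243), Trp53inp1 (0.249) and Ctsz (0.261), at larger distances. The libraries differ in depth and in the number of detected genes, which can bear on both genes of a pair. Their part was not tested, and the likeness is a description.

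Of 16 further ETS family genes, 7 were tested, and the other 9 (Erg, Fev, Elf3, Elf5, Spdef, Etv1, Etv2, Etv4 and Erf) had too few counts. Ehf, an epithelial type of ETS factor, was at 24 and 3.12 CPM in p52ki GC cells and at 14.4, 28.1 and 17.5 CPM in WT GC cells, and at no more than 0.886 CPM in any naive or activated library. It was called higher in GC cells relative to both earlier stages in both genotypes. Leaving out 1 library ended the WT call relative to activated cells in 1 of 6 cases (adjusted p = 0.0572), the WT call relative to naive cells in 2 of 6 (0.0582 and 0.0693) and the p52ki call relative to activated cells in 3 of 5 (0.0694 to 0.136), and that last call was lost in 7 of 13 alternatives in all. Etv5 had 0 counts in both p52ki GC libraries, against 6.8, 0 and 6.41 CPM in WT GC cells, and was called lower between genotypes in GC cells (adjusted p = 0.0238, edgeR with Benjamini-Hochberg adjustment). That call was lost in 8 of 14 alternatives, among them those without WT GC replicate 1 (0.0508), p52ki GC replicate 2 (0.0736) or p52ki GC replicate 5 (0.0686). At 3 counts over the p52ki GC group Etv5 would be at 0.293 CPM, 15-fold under the WT mean of 4.4 ± 3.82 CPM. This floor covers counting error only, and WT GC replicate 3, with as few detected genes, also had 0 counts. Against WT GC replicate 3 alone the log2 fold change of Etv5 was 0. With detected genes as covariate in edgeR it was -2.62 (adjusted p = 0.428).

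Partners and targets of ETS factors were counted from lists of 16 and 15 genes, all tested. Of the partners 1 was higher and 0 lower in p52ki GC relative to WT GC cells: Irf4, the interferon regulatory factor that binds DNA beside PU.1 and Spi-B, at 34.9 ± 7.92 CPM in p52ki and 17.9 ± 5.57 CPM in WT (log2 0.97, SE 0.295, adjusted p = 0.0383). All genes were called at 3.75% higher and 12.2% lower in that comparison. The Irf4 call was lost in 6 of 14 alternatives. Among them were edgeR fits without WT GC replicate 1 (adjusted p = 0.11) and without p52ki GC replicate 5 (log2 0.70). Others were limma voom (adjusted p = 0.561), only the groups compared (0.764) and no low count filter (0.165). Without single libraries 1 to 3 partners were called. Irf4 and Jun, an AP-1 subunit, were lower in GC cells relative to activated and naive cells in both genotypes. Relative to naive cells 4 partners were lower in p52ki GC cells (Irf4, Irf8, Jun and Rela) and 5 in WT GC cells (Irf4, Jun, Nfkb2, Rel and Runx1), with 0 higher in either. All genes were called at 29.1% (20.4% lower) in p52ki and at 15.9% (7.47% lower) in WT. Without single libraries the partner counts were 3 to 4 and 3 to 7. The list medians there were -0.63 in p52ki and -0.36 in WT, beside -0.42 and -0.16 over all genes.

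Among PU.1 and Spi-B targets, 3 were higher and 1 lower in p52ki GC relative to WT GC cells, beside the same 3.75% and 12.2% of all genes, and 3 to 5 were called without single libraries. Grap2, an adaptor of antigen receptor signalling, was at 16.5 and 16.9 CPM in p52ki GC cells and at 3.85, 7.74 and 4.57 CPM in WT GC cells (log2 1.64, SE 0.379, adjusted p = 0.0113, edgeR with Benjamini-Hochberg adjustment). Fcer2a, which encodes CD23, was higher by 0.94 (SE 0.225, adjusted p = 0.0134) and Cd79a, a B cell receptor subunit, by 0.84 (SE 0.258, adjusted p = 0.0397). The Grap2 call was lost in 4 of 14 alternatives and the Fcer2a call in 3 of 14. Both ended with limma voom (adjusted p = 0.289 and 0.266) and with only the groups compared in edgeR (0.732 and 0.599). Against WT GC replicate 3 alone the log2 fold changes were 1.11 for Grap2 and 0.77 for Fcer2a. The Cd79a call was lost in 4 of 5 fits without a single GC library (adjusted p 0.0585 to 0.13), those without WT GC replicates 1 and 4 and p52ki GC replicates 2 and 5. Fcer2a is also in the naive follicular marker list given above, whose sum was higher in p52ki GC cells. Tlr9, the endosomal DNA sensor, had 0 counts in both p52ki GC libraries, against 4.23, 1.22 and 4.02 CPM in WT GC cells (mean 3.16 ± 1.68). At 3 counts over the p52ki GC group Tlr9 would be at 0.293 CPM, 10.76-fold under that mean. This floor covers counting error only. WT GC replicate 3, also with few detected genes, had 6 counts, but a single library cannot tell the part of detected genes in the zeros. The Tlr9 call was lost in 2 of 14 alternatives, limma voom (adjusted p = 0.372) and only the groups compared in edgeR (0.621). Relative to naive cells 4 of 15 targets were called lower in p52ki GC cells, Fcer2a, Grap2 and Tlr9 among them. Of all genes 29.1% were called there (20.4% lower). In WT GC cells 6 of 15 were called lower, Cd22, Cd79a, Fcer2a, Grap2 and P2ry10 among them, beside 15.9% of all genes (7.47% lower). In both genotypes 0 targets were called higher. Fcer2a was the 1 target called in activated relative to naive cells, lower by 1.52 on the log2 scale in both genotypes (-1.52 in each). Of all genes 0.117% were called there in p52ki and 0.319% in WT.

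Markers of T cells and myeloid cells were low beside the B cell markers. The 10 T cell markers summed to 69 to 70.2 CPM in p52ki GC cells and to 48.7 to 131 CPM in WT GC cells, and Lck alone was at 30.1 to 122 CPM over the 17 libraries. Cd3g, Cd4, Cd8a, Thy1, Trac and Cd28 were at 0 in p52ki GC cells. The 12 myeloid markers are of interest because Spi1 is high in myeloid cells. They summed to 23.7 to 84.5 CPM in p52ki GC cells (mean 54.1) and to 9.57 to 57.7 CPM in WT GC cells (mean 37). Lyz2, Csf1r, Itgam, Cd14, Fcgr1, Csf3r, S100a8 and S100a9 were at 0 in p52ki GC cells. The sum there came from Adgre1, Mpeg1, Cd68 and Sirpa. Both p52ki GC libraries had few detected genes, and the part of this in the zeros was not tested. The 8 plasma cell markers summed to 2895 to 3010 CPM in p52ki GC cells, with Prdm1 at 0, and to 2990 to 6165 CPM in WT GC cells. Sums of 9 NK cell markers were 0 to 32.9 CPM in p52ki GC and 0.611 to 8.48 CPM in WT GC cells, of 10 erythroid and platelet markers 326 to 372 and 48.9 to 236 CPM, and of 8 endothelial and stromal markers 55.6 to 105 and 13.6 to 52.2 CPM in the same order. Among the endothelial and stromal markers Pecam1 was at 13.6 to 212 CPM over the 17 libraries, and the others were at 2.42 CPM or less. The part of all these markers in the ETS levels was not tested.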

How the data were processed

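RNA from sorted B cells was amplified by SMART-Seq v2 from low input and sequenced in pairs, per the labels' protocols. The deposited values are raw counts for each gene, for which the submitters' processing notes name HISAT2 2.1.0, SAMtools 1.8, Subread 1.6.2 (featureCounts) and GRCm38. The sources used here give neither strand use, annotation release nor treatment of multiply mapped reads. The protocols name no molecular identifiers, so floors cover counting error only.

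All libraries were fitted together in edgeR 4.0.16 (R 4.3.3): genes kept by filterByExpr over the 6 groups (15352 of 55536), TMM scaling, robust quasi-likelihood fit with 1 coefficient per group, 11 contrasts, and Benjamini-Hochberg adjustment over all genes of a contrast, with calls at an adjusted p under 0.05. CPM are TMM-scaled. Alternatives were DESeq2 1.42.0, limma 3.58.1 voom, other scaling and filters, covariates and leaving out libraries, and the fits were tested on simulated data. Libraries of a group differed beyond counting error in every pair (chi-square per degree of freedom 8.49 to 127). Positions and exon lengths are from GENCODE M21, and promoters from RefSeq.

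All 10 members are named. From each further list up to 4 called genes with the smallest p per contrast were to be named, and others named beside them were chosen after their values were seen. The 3 genes most like a called member exclude predicted and antigen receptor segment genes and need 5 CPM or more on average in some group. The members and lists were chosen with earlier results of these data known. A gene of the marker and target lists is not reported here.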

Additional observations from a re-analysis of the deposited data

Results flagged for a closer look

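The change from activated to GC cells differed between genotypes for 3 of the genes examined, by the interaction test of edgeR with Benjamini-Hochberg adjustment. They were 1 of 10 members, 1 of 7 further ETS genes tested, 0 of 16 partners and 1 of 15 targets. Over all genes 5.95% were called in this test. For Elf1 the adjusted p was 0.0267, with 2 of 2 p52ki GC libraries below all WT GC libraries. For Tlr9 it was 0.00457 and for Etv5 0.0493, and both genes had 0 counts in the 2 p52ki GC libraries. WT GC replicate 3 also had 0 counts of Etv5. The Elf1 difference was lost in 8 of 19 alternatives, the Etv5 difference in 14 of 19, including 9 of 11 that left out 1 library (adjusted p 0.0694 to 0.0992), and the Tlr9 difference in 2 of 19.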

How the results depend on the processing

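The number of ETS genes called was most often moved by limma voom with quality weights, by fitting only the groups compared and by the covariate for detected genes. In p52ki relative to WT GC cells 1 was called, against 0 with voom or only the groups compared, 5 with the covariate (24% of all genes), 5 against WT GC replicate 3 alone (23.7%), and 0 to 2 without single libraries. In p52ki GC relative to activated cells 2 were called, against 0 with voom or only the groups compared, 1 without immunoglobulin genes and 0 to 2 without single libraries. In WT GC relative to naive cells 2 were called, against 4 with voom (38.8% of all genes), 0 with only the groups compared, 1 with the covariate, and 0 to 2 without single libraries. In p52ki GC relative to naive cells 2 were called, against 0 with voom, 1 with only the groups compared and 1 to 3 without single libraries. For the genotype difference of GC against activated 1 was called, against 0 with voom or only the groups compared, 4 with the covariate and 0 to 2 without single libraries. Where 0 were called, voom called 2 in WT activated relative to naive, 1 in p52ki activated relative to naive and 2 in WT GC relative to activated, where DESeq2 called 1. Leaving out single libraries kept 0 in the contrasts with 0. A group left with 1 library is assumed to vary like the others. With voom and quality weights the calls of Elf1, Ets1 and Spib in p52ki GC cells ended (adjusted p 0.176 to 0.357). With only the groups compared, those of Ets1 in p52ki and WT (0.106 and 0.0958), Fli1 in WT (0.087), Spib (0.0608) and Elf1 relative to activated cells (0.0905) ended. The cause was not tested.

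Replicate numbers were checked for pairing: same-numbered libraries had correlations of deviations from -0.229 to 0.281, which misses the rule that every pair is over 0.1. Among naive and activated libraries alone all 6 same-numbered pairs were positive (0.0786 to 0.281, 4 of them over 0.1), against 2 of 12 pairs with different numbers, a hint from the data and not from the design. With a replicate block, 1 ETS gene was called in WT GC relative to naive cells against 2 without it (Ets1 -0.86, adjusted p = 0.0756), and the other stage counts were within 1.5 times. Fewer than 2 numbers are shared between genotypes, so that no block was fitted there.

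Small values in p52ki relative to WT GC cells changed sign. Ets1 was 0.0038 with RLE scaling, 0.0039 with DESeq2, 0.025 with only the groups compared, 0.016 without immunoglobulin genes, 0.39 with the covariate, 0.47 against WT GC replicate 3 alone, and -0.55 to 0.27 without single libraries. Elf2 was 0.013 with RLE, 0.017 with DESeq2, 0.14 with voom, 0.030 with only the groups compared, 0.021 without immunoglobulin genes, 0.022 with replicate number as a random effect, and -0.25 to 0.12 without single libraries. Elf4 was 0.012 with only the groups compared, 1.42 with the covariate, 0.13 with the random effect, 2.00 against WT GC replicate 3 alone, and -0.46 to 0.54 without single libraries. Spib was 0.092 against WT GC replicate 3 alone, and Gabpa was -0.26 with voom and -0.22 to 0.66 without single libraries. Fli1 ran from -0.31 to 0.55 and Spi1 from -1.01 to 0.16 without single libraries, as did Etv6 in activated cells from -0.58 to 0.11. Of all genes 2450 were called there, against 3924 (25.6%) with DESeq2, 15 (0.0977%) with voom and 0 with only the groups compared. The all-gene median of p52ki GC relative to naive cells was -0.27 without immunoglobulin genes, 0.22 with the covariate, -0.74 with voom and -1.07 without p52ki GC replicate 5, against -0.42 as reported.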
